A study of Mus musculus with 9 samples.

Results

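Membrane transporters, pumps and channels are the proteins that move ions, metals and metabolites across the membranes of a cell and its organelles. They were taken here by gene symbol, as the solute carriers (Slc), the ABC transporters of the a, b, c, d and g branches, the Atp pumps, and the channel families Kcn, Clcn, Clic, Scn, Cacn, Trpc, Trpm, Trpv and Aqp, with Slc2a1 left out. The rule found 17 of the 675 genes in the deposited table, and no measured value entered it. The table itself was chosen on a measured value. All 675 genes in the authors' deposited table have a 6 h ratio, OGD over normoxia, of at least 1 in size on the log2 scale, so each member is there because it differed at 6 h.

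The RNA came from wild-type mouse brain microvascular endothelial cells (MBMECs), which the labels give as a cell line of endothelial type. The cells were kept in normoxia, under joint deprivation of oxygen, glucose and fetal bovine serum (OGD, a culture model of ischemia), or under OGD with 3 µM obacunone, a limonoid of citrus fruit, for 1, 3 or 6 h each. Each of the 9 groups is 1 library, so no difference between a pair of libraries has a replicate check, and the obacunone groups have no normoxic counterpart. Values are FPKM, fragments scaled to transcript length and to the mapped total of the library, which allows levels to be compared between genes per length. Depth is unknown, as FPKM with 2 decimals gives no counts, so no counting interval is given. In bulk RNA, fewer cells that express a gene and less RNA of it per cell cannot be told apart.

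Brain endothelium depends on such proteins more than most endothelia, since its tight junctions close the path between cells and nearly everything must cross by a carrier, pump or channel. Oxygen and glucose loss lowers the ATP that drives pumps, and potassium channels, proton and bicarbonate exchangers and iron and copper handling are all known to matter for cells under ischemia. Of the 20 markers of brain endothelium in the marker list, Flt1 alone was in the table, at 0.05 to 0.68 FPKM over the 9 libraries. The claudin Cldn4, 1 of 10 epithelial markers and the sole one listed, stood at 60.9 to 308 FPKM and was higher under OGD at 3 h and 6 h. Tubb3, 1 of 5 neuronal markers, stood at 3.32 to 10.7 FPKM, and at 3 h and 6 h it and Flt1 were lower in the deprived libraries. A marker that did not differ at 6 h would be absent from the table at any level, so absence says nothing of cell identity. The remaining markers, and those of pericytes, astrocytes, microglia and fibroblasts, were not analysed here, and the part of cell identity in the values below was not tested.

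By substrate, 8 members move ions, 3 metals and 3 lipids, and 1 each is a monocarboxylate-family carrier, a mitochondrial carrier of basic amino acids and a carrier of a nucleotide sugar. Amino acid carriers of the plasma membrane, nucleoside transporters, aquaporins and the proton pumps were not analysed here. The cellular component terms in the deposited table place 12 members at the plasma membrane, 5 at endosomes, 3 at the Golgi and 2 at mitochondria, and a gene may carry several. Averaged over the 9 libraries, 12 members reached 1 FPKM, and these were tested within the 580 genes of the table that did. The other 5 averaged less, among them the lipid transporters Abca1, Abcg4 and Slc27a3.

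Promoter sequences, from 250 bases before to 50 after the start site, were matched in RefSeq (GRCm38.p6) for 12 of the 17 members, in 16 windows. They are shown for members whose difference at 3 h passed the test described below, each from the first RefSeq window listed for the gene, 5′ to 3′. The start used for Kcnn4 lies inside the annotated gene span, and Slc40a1 has no entry. Capitals mark the core of the element bound by HIF, the oxygen-sensitive transcription factor, searched as ACGTG and GCGTG on both strands, so that a match on the other strand reads as CACGT or CACGC.
Kcnn4, chr7:24370013-24370312, plus strand: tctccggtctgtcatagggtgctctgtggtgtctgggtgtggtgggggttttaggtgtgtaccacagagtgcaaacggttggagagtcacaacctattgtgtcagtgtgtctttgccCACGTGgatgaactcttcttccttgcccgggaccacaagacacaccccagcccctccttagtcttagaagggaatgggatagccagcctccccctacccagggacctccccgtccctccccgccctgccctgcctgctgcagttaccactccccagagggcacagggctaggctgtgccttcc
Slc35c1, chr2:92460469-92460768, minus strand: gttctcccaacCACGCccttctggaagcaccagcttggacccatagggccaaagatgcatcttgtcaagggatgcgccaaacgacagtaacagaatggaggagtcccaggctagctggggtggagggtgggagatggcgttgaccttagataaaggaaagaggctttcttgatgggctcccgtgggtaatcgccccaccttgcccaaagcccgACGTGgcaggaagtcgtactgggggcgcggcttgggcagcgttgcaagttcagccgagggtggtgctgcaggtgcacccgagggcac
Slc25a29, chr12:108835827-108836126, minus strand: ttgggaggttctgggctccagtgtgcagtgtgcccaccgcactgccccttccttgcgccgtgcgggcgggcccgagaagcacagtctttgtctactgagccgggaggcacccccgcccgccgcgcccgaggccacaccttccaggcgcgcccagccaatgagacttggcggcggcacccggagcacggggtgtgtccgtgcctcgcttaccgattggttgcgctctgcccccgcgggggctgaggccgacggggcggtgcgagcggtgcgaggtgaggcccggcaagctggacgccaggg
In Kcnn4 the letters lie inside a palindrome, CACGTG, which is also the E-box and matches on both strands. Slc35c1 holds a match on each side of the middle of its window, and in Slc25a29 these letters are not present. The core was found in 11 of the 16 windows, against 43.8% of all 32851 promoter windows of the same length. By gene it was found in 9 of 12 members, as Kcnk2 and Slc35c1 have several windows. No share by gene was computed over all genes, so the count by gene has no background and is not to be set against 43.8%. These members include some that rose, fell, were not called or were not tested. The E-box was found in 5 windows, against 7.15% of all. Its letters contain the core, so these 5 are among the 11 and are not a separate count. TGATGNAA, an element bound by the stress factor ATF4, was found in 0 of the 16, against 3.97%. The metal response letters TGCACNC and TGCGCNC were found in 9, against 25.7%. A match is a description of the letters and not of binding.

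Deprivation against normoxia asks how the cells changed these genes when oxygen, glucose and serum were withdrawn together. The potassium channel Kcnn4 rose at 3 h, and the iron exporter Slc40a1, the Golgi GDP-fucose carrier Slc35c1 and the mitochondrial amino acid carrier Slc25a29 fell. Slc25a29 averaged 1 FPKM only through its normoxia libraries, a filter that favours a fall. The calls of Kcnn4, Slc35c1 and Slc25a29 were lost when the 6 h libraries were left out. Of all tested genes, 56% were called at 3 h. At 1 h no member passed the test, beside 3.79% of all genes. Obacunone passed the test for no member, beside 0.172% of all genes. The test was limma across all 580 genes, fitted with a separate deprivation effect at 1, 3 and 6 h and a single obacunone effect shared by them, and Benjamini-Hochberg adjustment at 0.05. It takes OGD and OGD with obacunone at a time as a pair of deprived libraries. Its error has 2 residual degrees of freedom from those pairs, and normoxia, with 1 library a time, is taken to vary as those pairs do. Effects are log2 differences on log2(FPKM + 1), ± SE, which understates the change of genes near 1 FPKM.

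**Figure D1:**
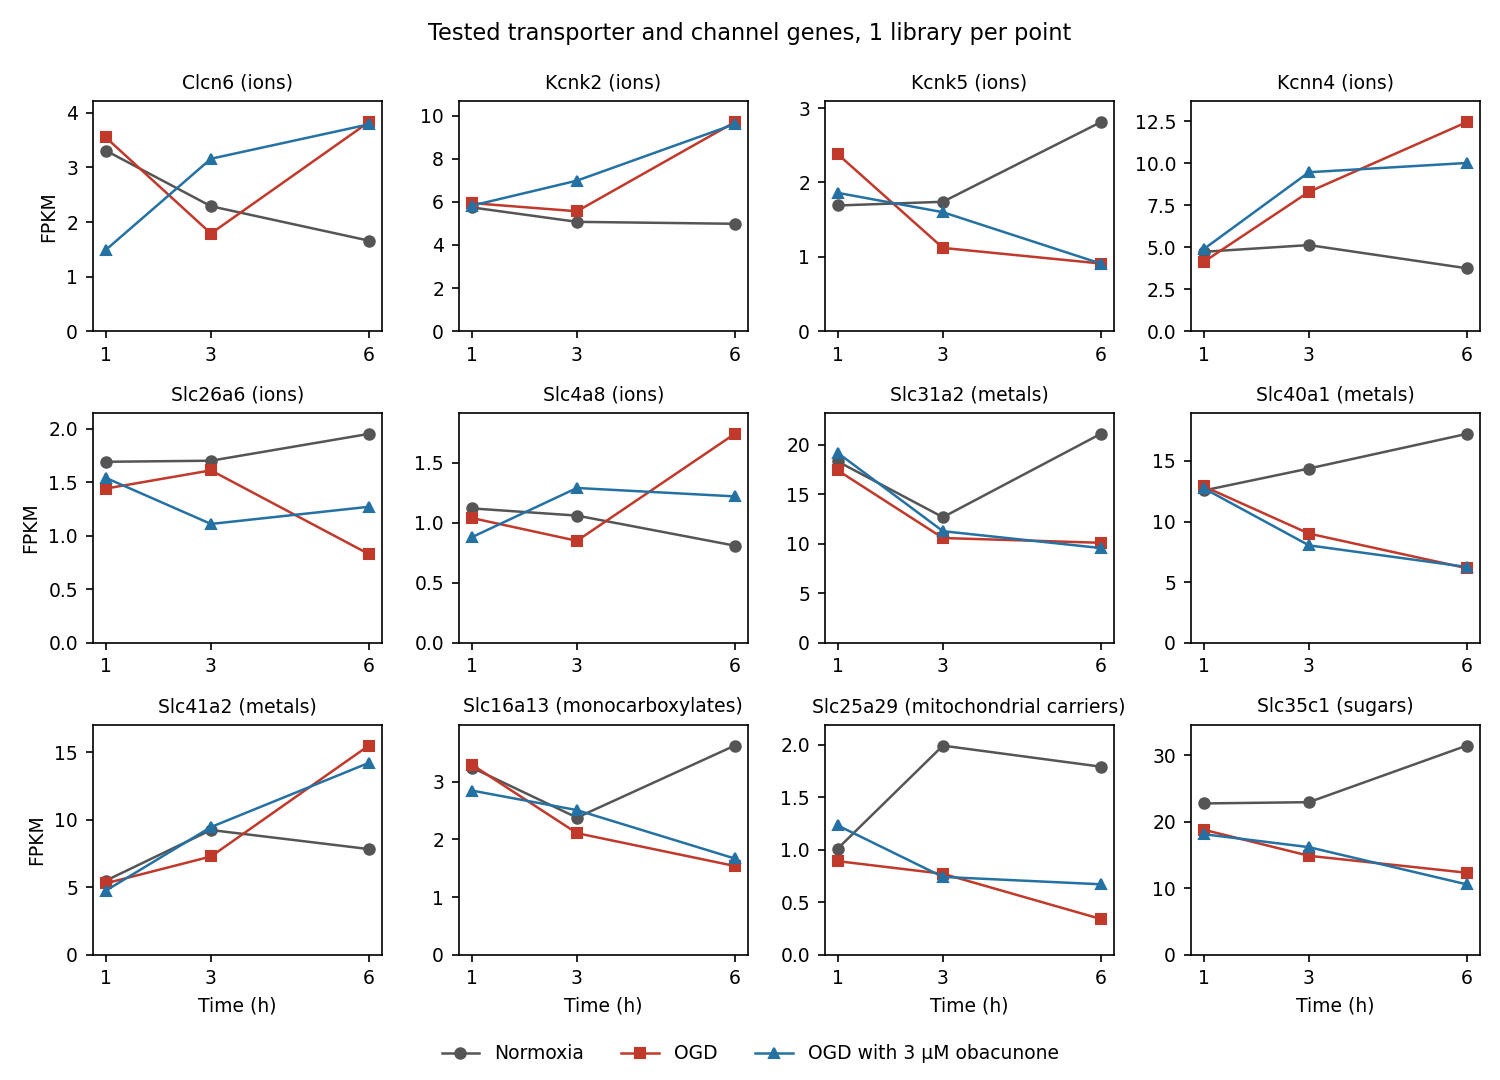
FPKM against time in h for the 12 tested members, with 1 library per point and lines joining the libraries of normoxia, OGD and OGD with 3 µM obacunone. The arms lie close at 1 h for most members, Kcnn4 is higher in the deprived libraries from 3 h (8.3 and 9.47 against 5.13 FPKM), and Slc40a1 is lower (9.01 and 8.04 against 14.4).

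Among the ion channels, Kcnn4 encodes the calcium-activated potassium channel of intermediate conductance, which hyperpolarises endothelial cells when calcium enters (NCBI gene 16534, chromosome 7, 24369826 to 24385212, GRCm38.p6). In normoxia it stood at 4.73, 5.13 and 3.75 FPKM after 1, 3 and 6 h, against 4.13, 8.3 and 12.45 under OGD, and 4.89, 9.47 and 10.02 with obacunone. The deprived libraries at 1 h were spread around the normoxia level, while those at 3 h and 6 h lay above all normoxia libraries. It rose at 3 h by 0.67 ± 0.22 (limma, adjusted p = 0.0352) and was not called at 1 h (-0.07 ± 0.22). The difference between the effects at 3 h and 1 h, 0.75 ± 0.30, missed the threshold (limma, adjusted p = 0.0817).

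Kcnk2 encodes TREK-1, a background potassium channel opened by stretch and lipids. Its levels were 5.74, 5.07 and 4.98 FPKM in normoxia, 5.94, 5.56 and 9.69 under OGD, and 5.82, 6.98 and 9.6 with obacunone. Only the libraries deprived for 6 h stood well apart from the other 7, which lay between 4.98 and 6.98. The effect at 3 h was 0.21 ± 0.20 (limma, adjusted p = 0.377). An annotated gene on the opposite strand, A430027H14Rik, covers 12.2% of its exon bases, and whether counting used strand is not given in the sources used here.

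Kcnk5 encodes TASK-2, a potassium channel that opens at alkaline pH outside the cell. Its transcript measured 1.69, 1.74 and 2.81 FPKM in normoxia, 2.38, 1.12 and 0.91 under OGD, and 1.86, 1.6 and 0.91 with obacunone. The deprived libraries at 3 h lay below all normoxia libraries, that with obacunone (1.6 against 1.69) only just, and the effect of -0.23 ± 0.25 was not called. Kcnk5 and Kcnk2, relatives in the same channel family, stood on opposite sides of normoxia at 6 h.

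Clcn6, a chloride and proton exchanger of late endosomes, varied most between OGD and OGD with obacunone. It stood at 3.31, 2.29 and 1.66 FPKM in normoxia, at 3.55, 1.79 and 3.83 under OGD, and at 1.49, 3.16 and 3.79 with obacunone. The pair was at 3.55 and 1.49 at 1 h and in the opposite order at 3 h, and its effects had the widest error among the members, -0.31 ± 0.40 at 1 h and 0.10 ± 0.40 at 3 h.

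Slc26a6 and Slc4a8 exchange anions. Slc26a6 carries chloride, bicarbonate and oxalate, and Slc4a8 takes up bicarbonate with sodium against chloride, which loads base into the cell. Slc26a6 stood at 1.69, 1.7 and 1.95 FPKM in normoxia, at 1.44, 1.61 and 0.83 under OGD, and at 1.54, 1.11 and 1.27 with obacunone. All 6 of its deprived libraries lay below all 3 of normoxia. Slc4a8 stood at 1.12, 1.06 and 0.81 FPKM in normoxia, at 1.04, 0.85 and 1.74 under OGD, and at 0.88, 1.29 and 1.22 with obacunone. Its deprived libraries were inside the normoxia range at 1 h and on either side of the normoxia library at 3 h. Neither was called at 3 h (-0.21 ± 0.26 and 0.02 ± 0.27). Over the 6 tested ion genes the median effect at 3 h was 0.06, with 1 risen and 0 fallen, beside a median of 0.08 over all 580 genes, of which 31.2% rose and 24.8% fell.

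Among the metal transporters, Slc40a1 encodes ferroportin, the exporter of iron from cells (gene 53945, chromosome 1, 45908070 to 45926532). Normoxia gave 12.6, 14.4 and 17.2 FPKM after 1, 3 and 6 h, OGD gave 12.9, 9.01 and 6.16, and OGD with obacunone 12.7, 8.04 and 6.26. The arms were within 0.34 FPKM of each other at 1 h, and from 3 h both deprived libraries lay below all normoxia libraries, with the normoxia level higher at each later time. It fell at 3 h by 0.67 ± 0.17 on the log2 scale (limma, adjusted p = 0.0124). It was the one member whose effect differed between 1 h and 3 h by the test of that difference (-0.72 ± 0.22, limma, adjusted p = 0.0385, with both deprived libraries lower at 3 h), where 37.1% of all genes passed. Without the 6 h libraries, which do not enter the size of that difference, its adjusted p was 0.125.

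Slc31a2 encodes CTR2, a copper transporter of endosomes and lysosomes. Levels were 18.3, 12.7 and 21.1 FPKM in normoxia, 17.4, 10.6 and 10.1 under OGD, and 19.2, 11.3 and 9.57 with obacunone. At 3 h the normoxia library was itself low and the effect was -0.22 ± 0.16 (limma, adjusted p = 0.251), while the normoxia library at 6 h was at 21.1. Slc41a2, a magnesium transporter, stood at 5.48, 9.23 and 7.82 FPKM in normoxia, at 5.28, 7.27 and 15.5 under OGD, and at 4.74, 9.45 and 14.2 with obacunone. Its deprived libraries at 3 h stood on either side of the normoxia library, and only at 6 h did both stand above all of normoxia. The median effect over the 3 metal genes at 3 h was -0.22, with 0 risen and 1 fallen, against the same shares of all genes as for the ion genes.

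Among the carriers of organic solutes, Slc35c1 of the Golgi and Slc25a29 of the mitochondrion were called at 3 h, the latter with the limit of the floor given below. Slc35c1, which brings GDP-fucose into the Golgi for the fucosylation of glycans such as selectin ligands (gene 228368, chromosome 2, 92452764 to 92460518), had the highest mean level per length of all members. In normoxia its levels were 22.8, 22.95 and 31.5 FPKM, compared with 18.8, 14.9 and 12.3 under OGD and 18.1, 16.2 and 10.6 with obacunone. All 6 deprived libraries lay below all 3 of normoxia. It fell at 3 h by 0.51 ± 0.16 (limma, adjusted p = 0.0273), and its effect at 1 h was -0.26 ± 0.16 (limma, adjusted p = 0.849). The difference between these effects, -0.25 ± 0.21, was not called (limma, adjusted p = 0.367).

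Slc25a29, which brings basic amino acids such as arginine and lysine into mitochondria (gene 214663, chromosome 12, 108825878 to 108835876), stood near the floor. It averaged 1.05 FPKM and reached the floor of 1 through its normoxia libraries. Every deprived library except that with obacunone at 1 h was below 1 FPKM. It was measured at 1.01, 1.99 and 1.79 FPKM in normoxia, 0.89, 0.77 and 0.34 under OGD, and 1.23, 0.74 and 0.67 with obacunone. At 1 h the arms overlapped, and at 3 h and 6 h the deprived libraries lay below all normoxia libraries. It fell at 3 h by 0.86 ± 0.24 on the log2 scale (limma, adjusted p = 0.0185), and with a pseudocount of 0.1 in place of 1 the effect was -1.49 (limma, adjusted p = 0.0464). The difference between its effects at 3 h and 1 h, -0.80 ± 0.32, missed the threshold (limma, adjusted p = 0.0806). The normoxia level of Slc25a29 was 0.57 higher at 3 h than at 1 h on the log2(FPKM + 1) scale. Slc16a13, a member of the monocarboxylate transporter family, stood at 3.25, 2.38 and 3.63 FPKM in normoxia, at 3.3, 2.11 and 1.54 under OGD, and at 2.85, 2.51 and 1.67 with obacunone. Its deprived libraries enclosed the normoxia library at 3 h, with an effect of -0.05 ± 0.23, and lay below it at 6 h.

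**Figure D2:**
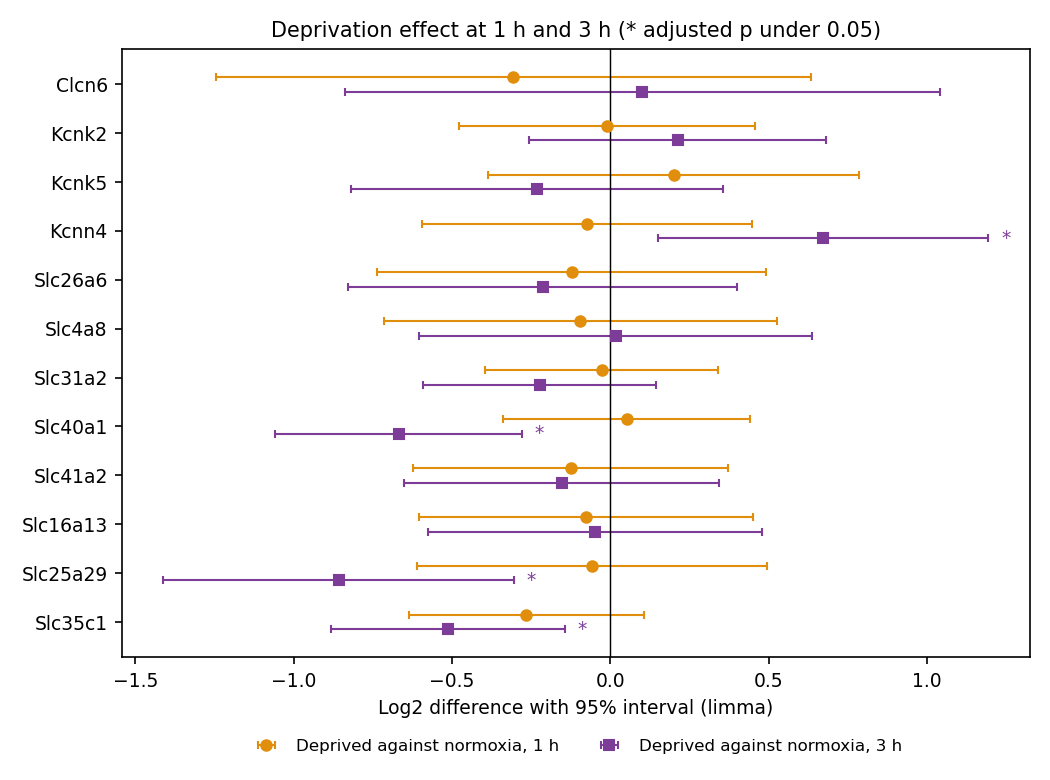
Log2 effect of deprivation on log2(FPKM + 1) at 1 h (circles) and 3 h (squares) for the 12 tested members, with 95% intervals from limma; a star marks an adjusted p under 0.05. All intervals at 1 h include 0, and at 3 h those of Kcnn4, Slc40a1, Slc25a29 and Slc35c1 do not.

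Counted together, 0 of 12 members were called at 1 h (limma; 0 also at an unadjusted p of 0.05, where 10.9% of all genes passed), where 3.79% of all genes were called. At 3 h 4 of 12 were called, 1 higher and 3 lower (4 also at an unadjusted p of 0.05, which 65% of all genes passed), where 56% of all genes were called, 31.2% higher and 24.8% lower. Of the 3 lower, Slc25a29 had reached the floor through its normoxia libraries. The median size of the effect at 3 h was 0.22 for the members and 0.62 for all genes, and that at 1 h was 0.09 and 0.12. On log2(FPKM + 1), the OGD and normoxia libraries were at least 2-fold apart for 0 members at 1 h, beside 3.79% of genes, and for 0 at 3 h, beside 23.3%. With a pseudocount of 0.1 the count at 3 h was 1, Slc25a29, beside 31.7% of genes. The deprived pair lay outside the range of the 3 normoxia libraries for 4 members at 1 h and 7 at 3 h, beside 27.4% and 76% of all genes, and at 6 h for 12, beside 90.9%. The genes were chosen on OGD against normoxia at 6 h, which favours the count at that time. Whether the members differ from other genes in these counts was not tested. Without the 6 h libraries 1 of the 4 calls remained, Slc40a1 (limma, adjusted p = 0.0484), where 44.5% of all genes were called. The effects of the other 3 were then 0.59 for Kcnn4, -0.82 for Slc25a29 and -0.55 for Slc35c1, with an adjusted p of 0.0728 to 0.0948. A fit with 1 effect over all times called 0 members and 4.14% of all genes.

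At 6 h the members' differences describe the choice of the table, and no test is given. In the authors' deposited table the log2 ratio was above 0 for 7 of the 17 members and below 0 for 10, against 350 and 325 in the table, and its size at the edge of the choice was 1.00 for Slc31a2 and 1.01 for Kcnk2. Kcnn4, at 12.45 FPKM under OGD against 3.75 in normoxia, had the highest log2 difference among tested members on log2(FPKM + 1), 1.502. Slc40a1, at 6.16 against 17.2 FPKM, had the lowest, -1.35. On that scale 4 of 12 members were at least 2-fold apart, 1 higher and 3 lower, beside 68.3% of all genes (38.6% higher and 29.7% lower). With a pseudocount of 0.1 it was 10 of 12, 3 higher and 7 lower, beside 91.7% of all genes. After median-ratio scaling it was 7, of which 6 were lower, beside 68.3% (25.9% higher and 42.4% lower). The factors of that scaling came from the table's own genes, all chosen on a difference at 6 h. They were 0.882 for normoxia and 1.15 for OGD at 6 h, and cannot be told apart from that choice.

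The 6 h normoxia library itself lay to the far side of the earlier ones for most members, as for most genes of the table. The genes were chosen on this library against OGD, a choice that favours such values. It was the extreme of the 3 normoxia libraries, away from OGD, for 10 of 12 tested members, all but Slc25a29 and Slc41a2, and for 72.2% of all genes. A comparison chosen after the data were seen avoids the libraries on which genes were picked, and sets OGD with obacunone at 6 h against the mean of normoxia at 1 h and 3 h. There 1 of 12 members, Slc35c1, was at least 2-fold apart (-1.04), beside 35.5% of all genes. Slc40a1 stood at -0.99, Slc41a2 at 0.90, Kcnn4 at 0.89 and Kcnk2 at 0.73 in that comparison. Slc4a8 stood at 0.09 and Slc26a6 at -0.25, against 0.60 and -0.69 in the chosen one. All 12 members kept the sign of their 6 h difference, and lay beyond both earlier normoxia libraries, as 93.1% of all genes did; time and obacunone also differ in it.

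At 3 h 9 of 12 members stood on the same side of normoxia under OGD as at 6 h, beside 92.2% of all genes, with no library shared between the times. The 3 others were Clcn6, Slc4a8 and Slc41a2, each lower than normoxia at 3 h (-0.24, -0.16 and -0.31) and higher at 6 h (0.86, 0.60 and 0.90). In each of these 3 the OGD with obacunone library at 3 h stood above the normoxia library instead, by 0.34, 0.15 and 0.03. For Slc41a2 the libraries were thus nearly level. At 1 h 6 of 12 members had the sign of 6 h, beside 46.7% of genes.

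**Figure D3:**
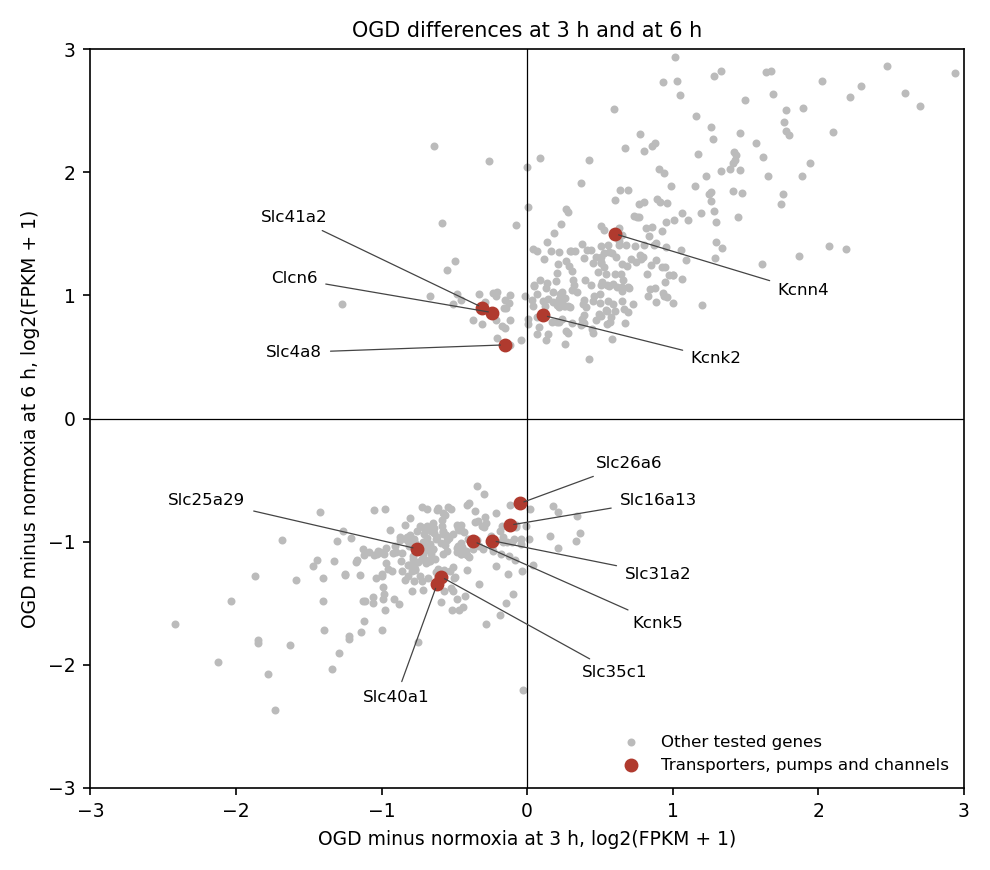
Difference of OGD and normoxia at 6 h against that at 3 h, both on log2(FPKM + 1), for the tested members (red, named) and the other tested genes (grey); 21 genes lie beyond the axes at 3. No gene lies near 0 at 6 h because the table was chosen there, and Slc41a2, Clcn6 and Slc4a8 are the members that change side.

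The 5 members below the floor were not tested. The cholesterol exporter Abca1 ranged from 0.31 to 0.9 FPKM, with the lowest value in normoxia at 6 h, and both deprived libraries at that time were within the range of the earlier normoxia libraries. Abcg4, a sterol exporter, ranged from 0.02 to 0.45 FPKM and Slc27a3, a fatty acid transport protein, from 0.02 to 0.55, each with the highest value in normoxia at 6 h.

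Normoxia over time gives the scale without deprivation. No tested member was at least 2-fold apart between normoxia at 3 h and 1 h, as 8.1% of genes were, or between 6 h and 1 h, as 14.7% were. The widest differences from 1 h to 3 h were those of Slc41a2 (0.66), Slc25a29 (0.57) and Slc31a2 (-0.50), and from 1 h to 6 h that of Clcn6 (-0.70). The median size was 0.17 at 3 h and 0.35 at 6 h. Over all genes it was 0.32 and 0.48.

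OGD with obacunone against OGD asks whether the compound altered these genes under deprivation. Obacunone was not seen to move any of them. Of 12 members 0 were called (limma; 0 also at an unadjusted p of 0.05, which 3.79% of all genes passed), where 0.172% of all genes were called, and on log2(FPKM + 1) 0 were at least 2-fold apart at 1, 3 or 6 h, where 2.93%, 1.21% and 0.862% of genes were. With a pseudocount of 0.1 it was 1 at 1 h, Clcn6, beside 5.52% of genes. The common effect lay between -0.10 (Clcn6) and 0.18 (Slc25a29) on the log2 scale. For Kcnn4 it was 0.03 with a 95% interval of -0.30 to 0.36, for Slc40a1 -0.05 (-0.29 to 0.20), for Slc35c1 -0.05 (-0.28 to 0.19) and for Slc25a29 0.18 (-0.17 to 0.53). The interval was widest for Clcn6, -0.70 to 0.49, so a change of that size cannot be told from none in these libraries. Single pairs moved in both directions. Slc25a29 was at 0.34 FPKM under OGD and 0.67 with obacunone at 6 h, Clcn6 at 3.55 and 1.49 at 1 h, and Slc4a8 at 1.74 and 1.22 at 6 h. At 3 h obacunone stood above OGD for 9 of 12 members, with a median difference of 0.17, as it did for 65.5% of all genes, with a median of 0.07. After median-ratio scaling it was 7 of 12 members and 39.7% of all genes.

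**Figure D4:**
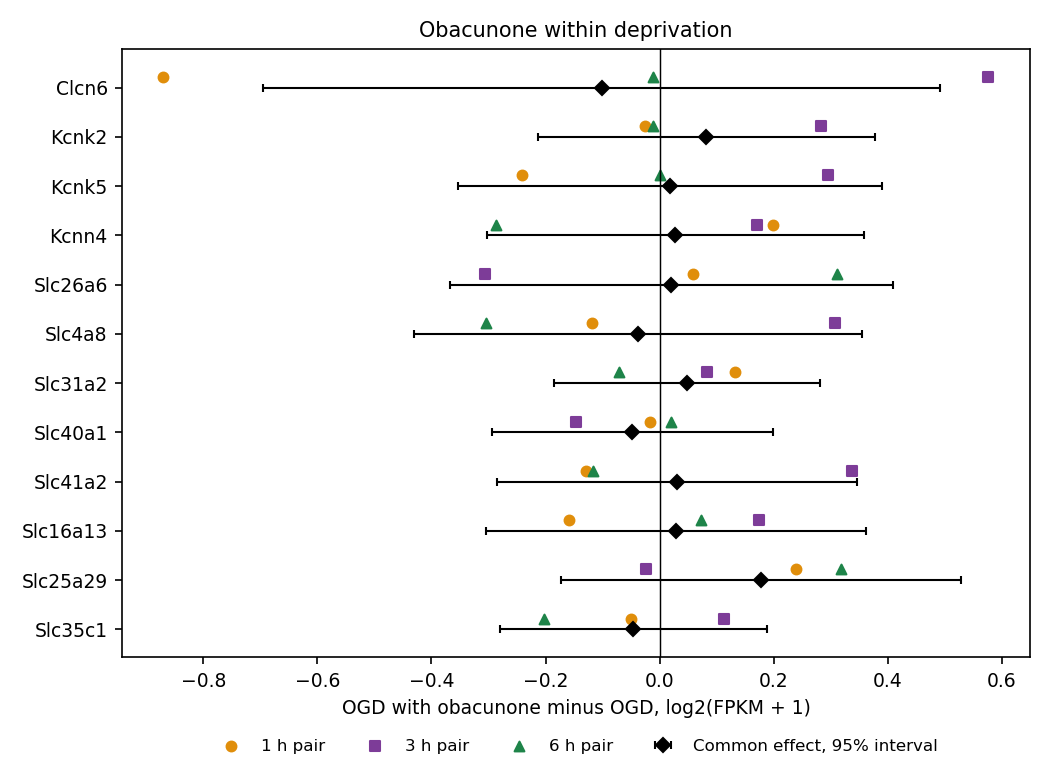
Log2 difference of OGD with obacunone and OGD on log2(FPKM + 1) for the 12 tested members, as single pairs at 1, 3 and 6 h (coloured) and as the common effect with its 95% interval (black). Every interval includes 0, and the pairs of Clcn6 lie farthest apart, at -0.87, 0.58 and -0.01.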

How the data were processed

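The submitters' processing notes name HISAT2 2.0.4, a read aligner, and the build GRCm38. How genes were counted, and whether strand was used, is not given in the sources used here. The authors deposited 1 table with FPKM for 9 libraries and their own log2 ratio for 6 comparisons, per the file headers. Each listed gene has a 6 h ratio of OGD over normoxia of at least 1 in size, so the list was chosen there. The members, substrate groups and marker lists were chosen with earlier results of these data known. FPKM was taken as log2(FPKM + 1), and 580 genes, those averaging 1 FPKM or more, were fitted together with limma 3.58.1 (trend) in R 4.3.3 (residual df 2, prior df 5.48). The script was tested on simulated data. P values rest on how the difference of OGD with obacunone and OGD varied over the times, with a prior from all fitted genes. An obacunone effect that changed with time would count as error there, and no normoxia library enters that error. Nothing says that the libraries were separate cultures, and each group had 1 library. All tested members were named, by a rule that named all if few enough passed; those below 1 FPKM were given as ranges, except 2 that are not reported here. Positions and promoters are from RefSeq (GRCm38.p6), and exon overlaps and shared 31-base words from GENCODE M21 of the same build. At most 0.651% of the words of a tested member other than Kcnk2 (10.6%) occur in other genes. Alternatives were other pseudocounts, floors, scalings, limma settings and folds, an additive fit, and leaving out each time. Median-ratio factors were computed from the table's genes detected in every library, which were all chosen at 6 h.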

Additional observations from a re-analysis of the deposited data

Results flagged for a closer look

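The effect of deprivation on Slc40a1, the iron exporter ferroportin, differed between 1 h and 3 h by the test of that difference, with a change of -0.72 on the log2 scale (limma, adjusted p = 0.0385). Both deprived libraries were within 0.34 FPKM of normoxia at 1 h, and at 9.01 and 8.04 FPKM against 14.4 at 3 h. The same test was passed by 37.1% of all genes. Without the 6 h libraries, which do not enter the size of the difference, Slc40a1 did not pass it.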

How the results depend on the processing

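The counts of members called at 1 h and for obacunone, 0 in each case, did not change under any alternative run. In the main fit 3.79% and 0.172% of all genes were called there. At 3 h 4 members were called, beside 56% of all genes. Leaving out 1 time gave 1 to 4, beside 44.5% to 61.9%, with the 1 at the loss of the 6 h libraries (Slc40a1). The additive fit, with 1 deprivation effect for all times, called 0, with adjusted p of 0.19 to 0.233 for the 4, and gave 18 higher and 6 lower genes over the table in place of 181 and 144. For the change from 1 h to 3 h, 1 member was called (Slc40a1), beside 37.1% of all genes. Without a floor, and with limma without trend, it was 2, with Slc25a29 added (limma, adjusted p = 0.0467 and 0.0484). The shares of all genes were then 32.7% and 32.4%. Leaving out the 6 h libraries gave 0, beside 29.3%. The cause was not tested.

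At 6 h 4 members differed 2-fold or more under OGD, beside 68.3% of all genes. The count became 10 with a pseudocount of 0.1 (beside 91.7%) and 7 with median-ratio scaling (beside 68.3%). It was 1 in the comparison added after the data were seen (beside 35.5%), and 12 at 1.5-fold. No share of all genes was computed at 1.5-fold, so counts at that fold show nothing particular to the members. The median-ratio factors came from genes chosen at 6 h, so the 7 cannot be told apart from that choice. At 3 h 0 (beside 23.3% of all genes) became 1 with the pseudocount of 0.1 (beside 31.7%) and 4 at 1.5-fold. Obacunone against OGD at 1 h went from 0 (beside 2.93% of all genes) to 1 under both of these (beside 5.52% with the pseudocount of 0.1). Normoxia at 3 h and at 6 h against 1 h went from 0 (beside 8.1% and 14.7%) to 1 each at 1.5-fold.

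The 48 effects of single members gave 432 values under the alternatives, of which 398 kept direction and call, 8 lost a call, 2 gained one and 24 changed sign, the last for effects that were not called. Median-ratio scaling moved the median of all genes at 1 h from -0.05 to 0.04. With median-ratio scaling the effect at 1 h became 0.079 for Kcnk2, 0.015 for Kcnn4, 0.073 for Slc31a2, 0.0026 for Slc25a29 and 0.0036 for Slc16a13, and the change from 1 h to 3 h of Slc16a13 became -0.055. With the authors' scaling Kcnk2 at 1 h became 0.0082, and in the additive fit Slc41a2 became 0.18. With 1 time left out, the effect at 3 h ranged from -0.091 to 0.12 for Clcn6 and from -0.049 to -0.0023 for Slc4a8, and that at 1 h from -0.035 to 0.039 for Kcnk2. The obacunone effect then ranged from -0.019 to 0.14 for Kcnk2, -0.12 to 0.15 for Kcnk5, -0.058 to 0.19 for Kcnn4, -0.12 to 0.18 for Slc26a6, -0.13 to 0.032 for Slc35c1 and -0.44 to 0.28 for Clcn6. It ranged from -0.12 to 0.11 for Slc41a2, -0.082 to 0.0017 for Slc40a1, -0.21 to 0.095 for Slc4a8 and -0.044 to 0.12 for Slc16a13.

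The labels give no replicate numbers, so no block by replicate was fitted; the libraries of a time share a term for that time in every fit. The depth of the libraries is unknown, and levels near 1 FPKM, such as those of Slc25a29 and Slc4a8, rest on few fragments by an amount that FPKM does not show.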
